A study of Mus musculus with 3 samples.

Results

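The genes described are the 5 developmental pluripotency-associated (Dppa) genes that have a row of their own among the 23154 gene rows of the count tables: Dppa1, Dppa2, Dppa3, Dppa4 and Dppa5a. They were chosen by symbol and not by their values, and they were followed across all barcodes in which at least 2000 genes had a count, which left 225 of 288 barcodes as cells. The cells came from mCherry-positive embryos of the Klf2-H2Bmcherry mouse line, taken at E2.5, grown in culture and taken apart into single cells as E3.5 blastocysts. Each of the 3 libraries is 1 replicate of the same E3.5 group and held 96 barcodes. The growth notes name static and shaking culture, but no label says which cells had which, so the only contrast available is between kinds of cell within a library.

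Dppa genes were named for being transcribed in pluripotent cells and early embryos. DPPA2 and DPPA4 are paralogous SAP-domain proteins that bind chromatin as a pair and, in mouse embryonic stem cells, are needed for transcription of genes of the two-cell stage. DPPA3, also called Stella or PGC7, is a maternal factor that shields DNA methylation of the egg's genome in the zygote and binds UHRF1, while DPPA5A is a KH-domain protein of the RNA-binding kind. In the blastocyst the outer trophectoderm (TE) gives rise to placenta, and the inner cell mass (ICM) splits into epiblast (EPI) and primitive endoderm (PrE).

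The libraries held 30573711, 27610866 and 54444536 counts, of which the cells kept 83, 64 and 78 barcodes. Clustering on 51 lineage markers, none of them a Dppa gene, gave a TE-like class of 106 cells led by Id2, Gata3 and Krt18, an ICM-like class of 93 cells led by Spic, Tdgf1 and Id3, and 26 cells led by B4galnt2 and Slc25a43 that no marker list named. The 16 TE markers summed to 6182 ± 1320 CPM (counts of a gene per 1000000 counts of the summed cells) in TE-like cells and 563 ± 127 CPM in ICM-like cells (SD, n = 3 libraries each). The 6 ICM markers summed to 264 ± 127 CPM in TE-like cells and 1207 ± 220 CPM in ICM-like cells. Of the markers, Lcp1 (TE) and Sox2 (EPI) had no count in any class. Replicate 2 stood apart in short transcripts: the median log2 ratio of replicate 2 over the other replicates was -2.11 over 248 genes whose longest transcript was under 1000 bases, and 0.48 over 4529 longer ones. Dppa5a, with a transcript of 619 bases, had -2.06 and Dppa3, with 833 bases, had -1.40, so the level of these genes in replicate 2 is not comparable with the others, and classes are compared within a library. The 18 unnamed cells of replicate 1 all lay in barcodes 33 to 64.

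Dppa1 was far higher in TE-like than in ICM-like cells, and Dppa2 was lower, while Dppa3, Dppa4 and Dppa5a did not pass the test. In the comparison of the summed counts of each class within each library, 1 of the 5 genes was called higher and 1 lower at an adjusted p below 0.05. Over all 12581 genes tested, 2.03% were called higher and 0.779% lower in TE-like cells, 2.81% in either direction. All 5 genes passed the filter on low counts. The labels do not say that the libraries came from separate litters or cultures, so the p-values measure the spread between these libraries, which may be technical, and they do not include the uncertainty of having drawn the classes on the same cells.

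**Figure D1:**
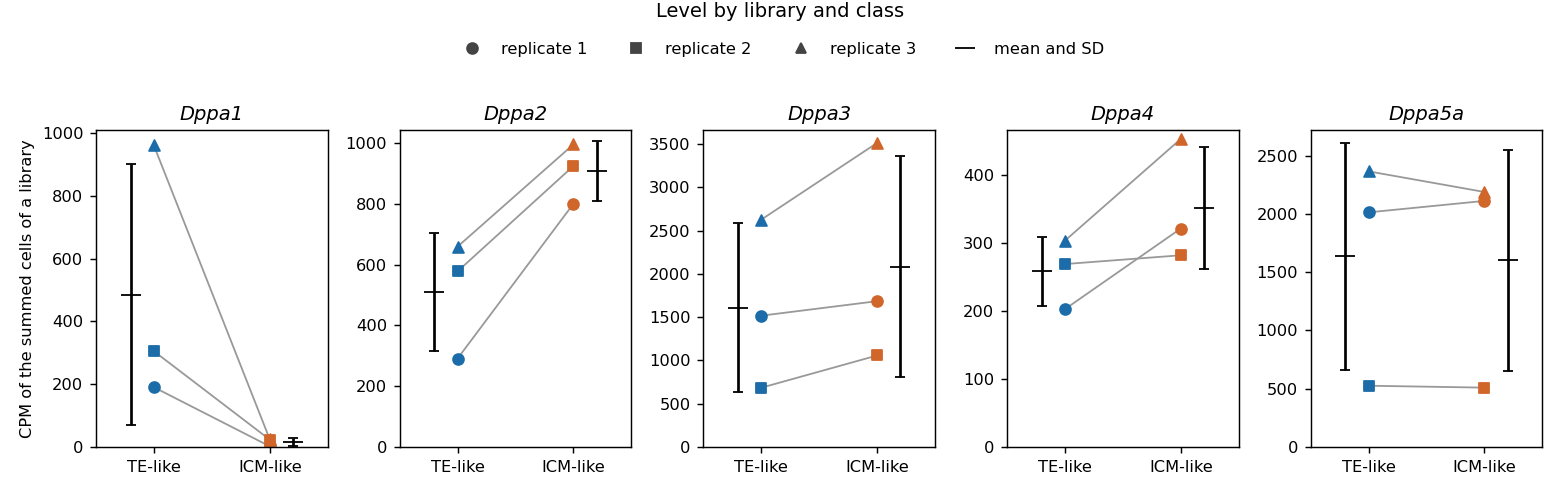
CPM of the summed cells of each library (vertical axes, each starting at 0) for the 5 Dppa genes in TE-like and ICM-like cells; each marker shape is a library, lines join the classes of 1 library, and black bars give mean and SD over 3 libraries. Dppa1 lies at 190 to 961 CPM in TE-like cells and at 1.78 to 23.9 CPM in ICM-like cells, and Dppa2 is lower in TE-like cells in each library.

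Dppa1 lies on the minus strand at chr11:46607772-46629261 of mm10, and no annotated gene overlaps it. The promoter table held Dppa1 alone among the 5 genes, and the 150 bases before its start are shown because this gene carries the difference between the classes. The stretch is chr11:46629275-46629424 on the minus strand of GRCm38.p6, from RefSeq, and the capitals mark AGATAAG, a form of the motif read by GATA factors, which begins 69 bases before the start site.
Dppa1 promoter: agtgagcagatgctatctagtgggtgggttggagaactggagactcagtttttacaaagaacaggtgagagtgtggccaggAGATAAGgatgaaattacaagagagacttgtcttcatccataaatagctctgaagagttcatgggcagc
AGATAAG was searched on both strands of 300-base windows, 250 before and 50 after each start, and 1000 of 32851 promoters (3.04%) hold it. The Dppa1 window holds none of 3 other motifs searched: the octamer ATGCAAAT (in 1.74% of promoters), the TEAD motif GGAATG (14.7%) and the GC box GGGCGG (35.7%). These matches describe the letters of the window and carry no information on binding.

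In TE-like cells Dppa1 had 190, 305 and 961 CPM in replicates 1, 2 and 3, against 1.78, 23.0 and 23.9 CPM in ICM-like cells. The lowest TE-like library was above the highest ICM-like one, so the classes did not overlap. The means were 486 ± 416 CPM in TE-like cells and 16.2 ± 12.5 CPM in ICM-like cells (SD, n = 3 each). The log2 fold change was 5.15 (SE 0.57), a 35.4-fold difference, with an adjusted p of 0.00946 (quasi-likelihood test of edgeR, Benjamini-Hochberg adjusted), and it was higher in 3 of 3 libraries. Of the 12581 genes tested, 46 had a larger log2 fold change, of which 12 were among the 255 called higher. By the same edgeR quasi-likelihood test the adjusted p was 0.125 without replicate 3 and 0.063 with the unnamed cells counted as ICM-like, and across 15 alternative settings the log2 fold change stayed between 4.09 and 5.93 with adjusted p-values of 1.81e-09 to 0.288.

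Cell by cell, the classes overlapped in part in Dppa1, most in replicate 2. No ICM-like cell of 93 exceeded the TE-like median of its own library, while 97 of 106 TE-like cells exceeded the ICM-like median. In replicate 1 that median was 0, so any count exceeded it. Of the TE-like cells, 79 exceeded every ICM-like cell of their library, 27 of 30, 20 of 36 and 32 of 40 in replicates 1, 2 and 3. Dppa1 had no count in 7 TE-like cells and in 41 ICM-like cells. The 8, 18 and 26 ICM-like cells of replicates 1, 2 and 3 that had any held medians of 1, 2.5 and 3.5 counts and maxima of 6, 116 and 88 counts. A few cells carried most of the ICM-like level: 1 cell held 116 of the 241 counts of replicate 2, and 5 cells held 375 of the 522 counts of replicate 3. All TE-like cells together had medians of 45.5, 69 and 558.5 counts in those libraries.

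The share of cells with a Dppa1 count was 93.3%, 88.9% and 97.5% of TE-like cells and 22.9%, 72.0% and 78.8% of ICM-like cells in replicates 1, 2 and 3. TE-like cells were somewhat deeper, with median totals of 318402, 404460 and 635141 counts against 262815, 334025 and 576864 in ICM-like cells. With every cell thinned to 20000 counts, the shares were 79.3%, 77.1% and 86.8% of TE-like cells and 2.94%, 28.0% and 24.2% of ICM-like cells. For ICM-like cells the exact binomial 95% intervals of the thinned shares were 0.0744% to 15.3%, 12.1% to 49.4% and 11.1% to 42.3%, and they cover counting error only. Thinning left out 4 TE-like cells and 1 ICM-like cell as too shallow.

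**Figure D2:**
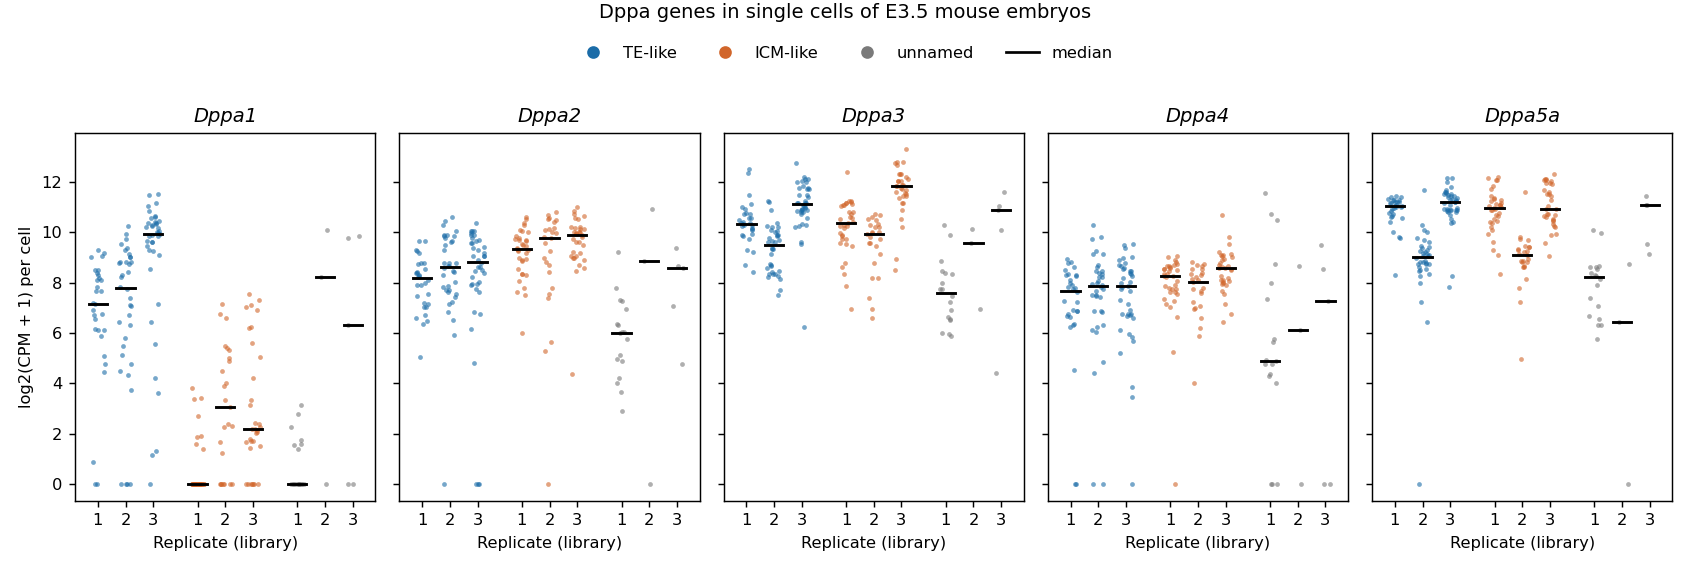
Each point is a cell, the vertical axis is log2(CPM + 1) of the named Dppa gene, the horizontal axis is the replicate within TE-like, ICM-like and unnamed cells, and black bars are medians. Of the 93 ICM-like cells, 0 lie above the TE-like median of Dppa1 in their library, whereas the clouds of the other 4 genes overlap.

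Within the TE-like class Dppa1 varied with the trophectoderm markers. Pearson's r between the log2 level of Dppa1 and the TE marker score was 0.77 over 30 cells of replicate 1, 0.50 over 36 cells of replicate 2 and 0.62 over 40 cells of replicate 3. This was not particular to Dppa1, since Dppa5a also had positive r with the score in each library, at 0.63, 0.40 and 0.26. For Dppa2, Dppa3 and Dppa4 the r was negative or of mixed sign. The cells behind each value are of 1 library and 1 class and differ in depth, so the values are a description. The 7 TE-like cells with no Dppa1 count had a median TE score of 0.038 and a median total of 50131 counts, whereas the 99 with a count had medians of 1.37 and 444594 counts. The part of depth in this difference was not tested.

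**Figure D3:**
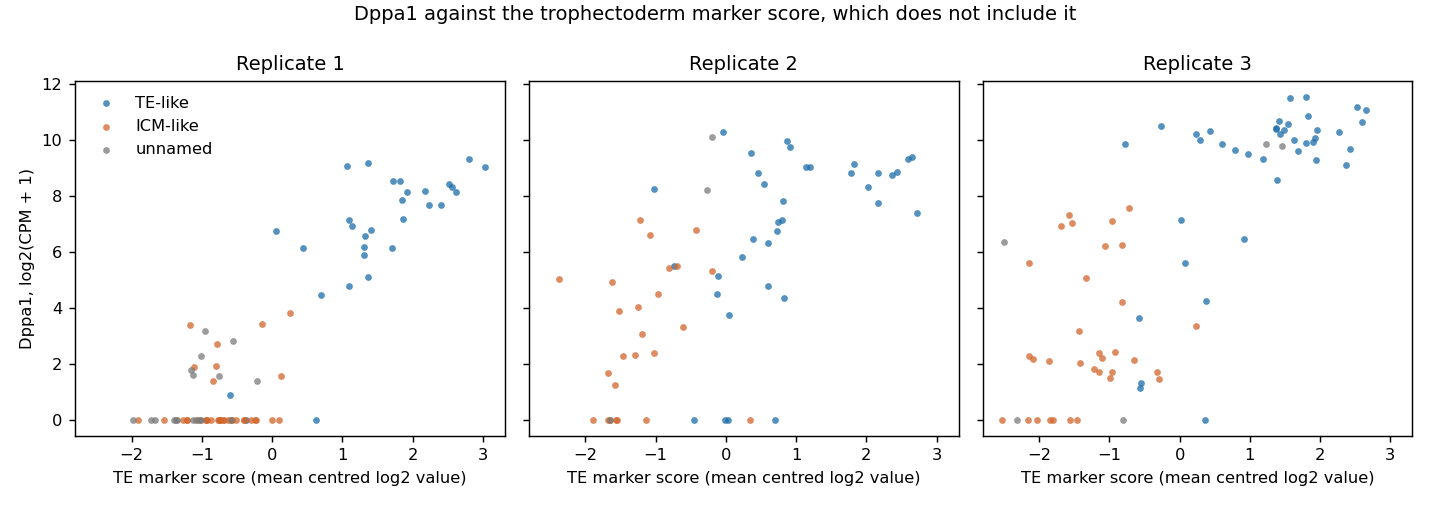
Dppa1 as log2(CPM + 1) (vertical axis) against the TE marker score, the mean centred log2 value of the TE markers, which do not include Dppa1 (horizontal axis), for each cell of the 3 libraries; colours give the class. TE-like cells with higher scores carry more Dppa1, with r of 0.77, 0.50 and 0.62 within the class.

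The same pattern appeared between sets of 32 barcodes. Dppa1 was higher in TE-like than in ICM-like cells in 9 of 9 sets, with log2 ratios of 2.27 to 6.94. The ratio of 2.70 in barcodes 33 to 64 of replicate 1 rests on few counts. There 1 TE-like cell held 8 Dppa1 counts, and no other TE-like or ICM-like cell held more than 1. The TE-like level of Dppa1 was lowest in barcodes 33 to 64 of replicate 1 (4.94 CPM, 4 cells), barcodes 65 to 96 of replicate 3 (52.7 CPM, 7 cells) and barcodes 65 to 96 of replicate 2 (80.6 CPM, 15 cells). The TE markers of these TE-like cells were also the lowest, at 1840, 2482 and 2244 CPM. In the other 6 sets Dppa1 was at 209 to 1300 CPM and the TE markers at 3978 to 9975 CPM. What the barcode sets stand for is not given in the labels, and their part in the differences was not tested.

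Dppa2 lies on the plus strand at chr16:48303908-48319723, and its paralog Dppa4 lies 9.67 kb before it on the same strand, at chr16:48283733-48294237. In TE-like cells Dppa2 had 291, 578 and 659.5 CPM in replicates 1, 2 and 3, against 801, 925 and 996 CPM in ICM-like cells. The classes did not overlap, and TE-like cells were lower in 3 of 3 libraries. The means were 510 ± 194 CPM in TE-like cells and 908 ± 98.9 CPM in ICM-like cells (SD, n = 3 each), with a log2 fold change of -0.86 (SE 0.16), 1.82-fold lower, and an adjusted p of 0.0463 (quasi-likelihood test of edgeR, Benjamini-Hochberg adjusted).

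The call for Dppa2 sat close to the threshold. By the same edgeR quasi-likelihood test the adjusted p was 0.147 without replicate 2 and 0.154 without replicate 3, and over 15 alternatives it ran between 0.000199 and 0.9998, with log2 fold changes of -1.16 to -0.59. Without barcodes 33 to 64 the log2 fold change was -0.67 (adjusted p = 0.162, edgeR quasi-likelihood test). Dppa2 was lower in TE-like cells in 6 of 9 barcode sets. Cell by cell the classes overlapped, with 77 of 93 ICM-like cells above the TE-like median of their library and 16 of 106 TE-like cells above the ICM-like median.

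Dppa4 had 202, 269 and 303 CPM in TE-like cells of replicates 1, 2 and 3, against 321, 282 and 453 CPM in ICM-like cells. It was lower in TE-like cells in each library, but the classes overlapped. The log2 fold change of -0.39 (SE 0.13) did not pass, with an adjusted p of 0.211 (quasi-likelihood test of edgeR, Benjamini-Hochberg adjusted). The log2 ratio of Dppa2 was below that of Dppa4 by a mean of -0.47 ± 0.41 (SD, n = 3), and the exact two-sided sign-flip permutation p was 0.25, the smallest that 3 libraries allow.

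Dppa2 and Dppa4, partners as proteins, varied together in some libraries only. Over ICM-like cells their r was 0.54, 0.15 and 0.36 in replicates 1, 2 and 3, and over TE-like cells it was 0.31, -0.14 and 0.70. Dppa2 and Dppa3 had r of 0.63, 0.17 and 0.65 over TE-like cells and 0.56, 0.27 and 0.29 over ICM-like cells. Dppa1 had negative r with Dppa2 over TE-like cells in each library, at -0.13, -0.33 and -0.27, and likewise with Dppa3, at -0.17, -0.31 and -0.29. With Dppa4 its r was of mixed sign, and with Dppa5a it was positive in each library, at 0.44, 0.04 and 0.04. Cells of a library are not replicates and differ in depth and perhaps in RNA quality, so these values are descriptions.

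Dppa3 lies on the plus strand at chr6:122626410-122630272. It had 1517, 684 and 2627 CPM in TE-like cells of replicates 1, 2 and 3, against 1685, 1057 and 3515 CPM in ICM-like cells. TE-like cells were lower in each library, but the classes overlapped across libraries. The log2 fold change was -0.35 (SE 0.11) with an adjusted p of 0.186 (quasi-likelihood test of edgeR, Benjamini-Hochberg adjusted). Without replicate 1 it was -0.53 with an adjusted p of 0.00973, and without barcodes 33 to 64 it was -0.42 with an adjusted p of 0.00528, both by the edgeR quasi-likelihood test, within a range of 0.00528 to 0.9998 over 15 alternatives. Every cell of both classes had a Dppa3 count, and 63 of 93 ICM-like cells were above the TE-like median of their library.

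Because Dppa3 is also a gene of oocytes and primordial germ cells, markers of both were summed. Of 8 oocyte markers 7 had a count in TE-like cells, all but Zp1, and 7 in ICM-like cells, all but Bmp15, with sums of 9.13 to 32.5 CPM in TE-like cells and 10.7 to 57.9 CPM in ICM-like cells. All 6 primordial germ cell markers had a count in both classes, with sums of 10.6 to 43.6 CPM in TE-like cells and 39.6 to 87.3 CPM in ICM-like cells. Their part in the levels of Dppa2, Dppa3 and Dppa4 was not tested.

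Dppa5a lies on the minus strand at chr9:78367052-78368177. Its level was 2012, 525 and 2364 CPM in TE-like cells of replicates 1, 2 and 3, against 2111, 508.5 and 2187 CPM in ICM-like cells. Replicate 2 was low in both classes, and the classes overlapped. The log2 fold change was 0.08 (SE 0.06) with an adjusted p of 0.591 (quasi-likelihood test of edgeR, Benjamini-Hochberg adjusted), and its sign turned under some settings, at -0.21 in cells with 4000 or more genes. Of the ICM-like cells, 44 of 93 lay above the TE-like median of their library.

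Dppa5a has copies that are near-identical over part of its coding sequence, Dppa5b and Dppa5c. They are annotated as unprocessed pseudogenes and have no row in the tables. Shown are the first 90 bases of the coding sequence of Dppa5a and the matching stretch of the copies, from GENCODE on mm10. The libraries were 3' libraries, and the 3' untranslated part of Dppa5a (184 bases) was not compared with the copies. The likeness shown may therefore not bear on the reads that were counted. All stretches are on chromosome 9, and the capitals mark the 3 bases that differ from Dppa5a.
Dppa5a: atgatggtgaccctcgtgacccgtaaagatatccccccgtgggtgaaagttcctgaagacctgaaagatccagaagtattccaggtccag
Dppa5b: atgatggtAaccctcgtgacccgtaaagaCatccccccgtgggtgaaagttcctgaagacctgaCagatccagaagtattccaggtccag
Dppa5c: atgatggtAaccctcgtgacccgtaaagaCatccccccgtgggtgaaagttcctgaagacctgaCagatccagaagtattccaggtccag
Over the aligned coding sequence 288 of 297 bases were identical (97.0%) for each copy. The alignment had 1 gap and covered 83.2% of the 357 coding bases of Dppa5a. Dppa3 and its pseudogene Dppa3-ps shared 443 of 451 bases (98.2%), whereas the paralogs Dppa2 and Dppa4 matched at 135 of 191 bases of their best local alignment (70.7%). The sources used here do not give how reads that fit several places were counted, so the levels of Dppa5a and Dppa3 are uncertain to that extent.

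The log2 ratio of Dppa1 was above that of each of the other 4 genes in every library. In TE-like over ICM-like cells it exceeded that of Dppa2 by 6.18 ± 1.91, that of Dppa3 by 5.67 ± 1.27, that of Dppa4 by 5.70 ± 1.81 and that of Dppa5a by 5.24 ± 1.56 (SD, n = 3), each positive in 3 of 3 libraries. The exact two-sided sign-flip permutation p of each was 0.25, the smallest possible with 3 libraries, so this design cannot pass 0.05.

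Within the ICM-like class, clustering again on EPI and PrE markers gave 12 EPI-like cells led by Spp1 and Upp1 (7, 4 and 1 in replicates 1, 2 and 3), 26 PrE-like cells led by Serpinh1 and Lamb1 (10, 6 and 10) and 55 cells of neither kind. The naming was mixed, as Spp1 and the EPI marker Gdf3 were also among the leading genes of the PrE-like cells. Some PrE-like cells had a higher EPI than PrE marker score, such as a cell of replicate 3 at 1.97 against 0.12. An EPI-like cell of replicate 2 had the reverse, at 0.69 against 1.70. No library had 8 cells of both kinds, so no test was made, and replicate 3 of the EPI-like class is a single cell. Dppa5a had 4106, 665 and 4001 CPM in EPI-like cells and 2218, 553 and 3630 CPM in PrE-like cells, higher in EPI-like cells in each library as a whole. Dppa1 had 1.27, 13.6 and 3.78 CPM in EPI-like cells, from 2, 18 and 2 counts, and 2.5, 36.4 and 50.8 CPM in PrE-like cells, from 7, 128 and 285 counts. Of the PrE-like counts, 1 cell held 5 of the 7 in replicate 1 and 1 cell held 116 of the 128 in replicate 2. The medians over cells had no common direction, at 0, 12.2 and 3.78 CPM in EPI-like cells and 0, 4.73 and 8.49 CPM in PrE-like cells. Dppa4 had 292, 206 and 289 CPM in EPI-like cells and 354, 256 and 417 CPM in PrE-like cells. Dppa2 (665, 124 and 1866 CPM in EPI-like cells, 778, 1277 and 849 CPM in PrE-like cells) and Dppa3 (1682, 544 and 7030 CPM in EPI-like cells, 1713, 1250 and 3328 CPM in PrE-like cells) showed no common direction. All EPI-like cells of replicates 1 and 2 lay in barcodes 1 to 32, whereas most PrE-like cells lay in other sets, and within a set some directions turned. In barcodes 1 to 32 of replicate 1, with 7 EPI-like and 4 PrE-like cells, Dppa2 had 665 CPM in EPI-like cells and 206 CPM in PrE-like cells, and Dppa4 had 292 CPM in EPI-like cells and 233 CPM in PrE-like cells. In barcodes 1 to 32 of replicate 2, with 4 EPI-like cells and 1 PrE-like cell, Dppa5a had 665 CPM in EPI-like cells and 821 CPM in the PrE-like cell. Barcode set and kind of cell cannot be told apart here.

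The 26 unnamed cells were unlike each other. Dppa1 had 2.88 CPM in the 18 unnamed cells of replicate 1, 172 CPM in the 3 of replicate 2 and 844 CPM in the 5 of replicate 3, and 14 of the 26 had no count. Their TE markers summed to 256, 440 and 8758 CPM. A few cells carried Dppa1: 1 cell, with a TE score of -0.20, held 143 of the 148 counts of replicate 2, and 2 cells, with TE scores of 1.24 and 1.45, held 2277 of the 2280 counts of replicate 3. The TE markers of replicate 2 summed to 440 CPM in unnamed cells and 418 CPM in ICM-like cells. Another of its unnamed cells, with a TE score of -1.64 and no Dppa1 count, held 716448 of the 862870 counts of the 3 cells. The Dppa1 level and the marker sum of these 3 cells therefore need not describe the same cell. In the 18 cells of replicate 1 Dppa2 was at 102 CPM, Dppa3 at 342 CPM and Dppa5a at 356 CPM, each under that library's TE-like and ICM-like values. Dppa4, at 377 CPM, was above both, with a median over cells of 29.0 CPM and a highest cell of 3009 CPM, so few cells carried it. Oocyte markers reached 500 CPM in these 18 cells. Over all 26 unnamed cells 4 of the 8 oocyte markers had a count, with Zp1, Bmp15, Oosp1 and Mos without one. The part of these markers in the Dppa levels was not tested.

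Genes whose pattern was most like each Dppa gene were ranked by Pearson's r of log2 levels over the 199 TE-like and ICM-like cells, computed in each library and averaged, among 9456 genes. For Dppa1 they were Tspan8 (0.77) and Krt18 (0.75), both used in the clustering, then the transmembrane protease gene Tmprss2 (0.73) and the peptide transporter gene Slc15a2 (0.73). Tmprss2 had 42.4, 352 and 125 CPM in TE-like cells and 0.629, 13.1 and 0.686 CPM in ICM-like cells, with a log2 fold change of 6.01 (SE 0.60; edgeR adjusted p = 0.00637, quasi-likelihood test). For Dppa2 they were Sfn (0.66), the co-chaperone gene Stip1 (0.59), the proteasome gene Psma5 (0.56) and the chaperonin gene Cct2 (0.55). Stip1 was lower in TE-like cells too, at -0.52 (SE 0.09; edgeR adjusted p = 0.0425, quasi-likelihood test).

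Dppa3 was most like Rhox3g (0.70), Psma2 (0.59), Hmgb2 (0.58) and Sfn (0.58), and Dppa4 most like Nphs1 (0.54), Rpl24 (0.53), Rpl31 (0.52) and Rbx1 (0.52). Dppa5a was most like the cyclophilin A gene Ppia (0.73), Fbp2 (0.70) and the ribosomal protein genes Rpl32 (0.69) and Rps6 (0.68). Each r was computed over cells of both classes and of unlike depth, and the part of class and depth in it was not tested. The share of counts from ribosomal protein genes was 20.2%, 4.76% and 14.5% in replicates 1, 2 and 3.

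The 4 protein-coding genes on either side of each Dppa gene were read from the same fit. Next to Dppa1, BC053393, 18.5 kb away, had 100, 713 and 437 CPM in TE-like cells against 14.7, 115 and 76.1 CPM in ICM-like cells. It was higher in each library, although the classes overlapped between libraries, with a log2 fold change of 2.68 (SE 0.14; edgeR adjusted p = 0.000623, quasi-likelihood test). Havcr1, 106 kb away, was higher as well, at 0.82 (SE 0.13; edgeR adjusted p = 0.0278), while Timd2, between it and Dppa1, had 0.45 and did not pass (edgeR adjusted p = 0.0758).

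Around Dppa3 the neighbours moved in opposite directions. The glucose transporter gene Slc2a3, 97.5 kb away, was higher in TE-like cells at 2.35 (SE 0.15; edgeR adjusted p = 0.00139), and the cytidine deaminase gene Apobec1 was lower at -1.87 (SE 0.32; edgeR adjusted p = 0.0389). Gdf3 and Nanog, the nearest on each side, had -0.93 and -0.96 and were among the clustering markers, so they are no test. Beside Dppa5a, Ooep, 7.93 kb away and an oocyte KH-domain gene, had 1.06 and did not pass (edgeR adjusted p = 0.101). Beside Dppa4, only Dppa2 passed among the tested neighbours, and beside Dppa2 none did; Morc1, at -1.86, was a clustering marker.

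**Figure D4:**
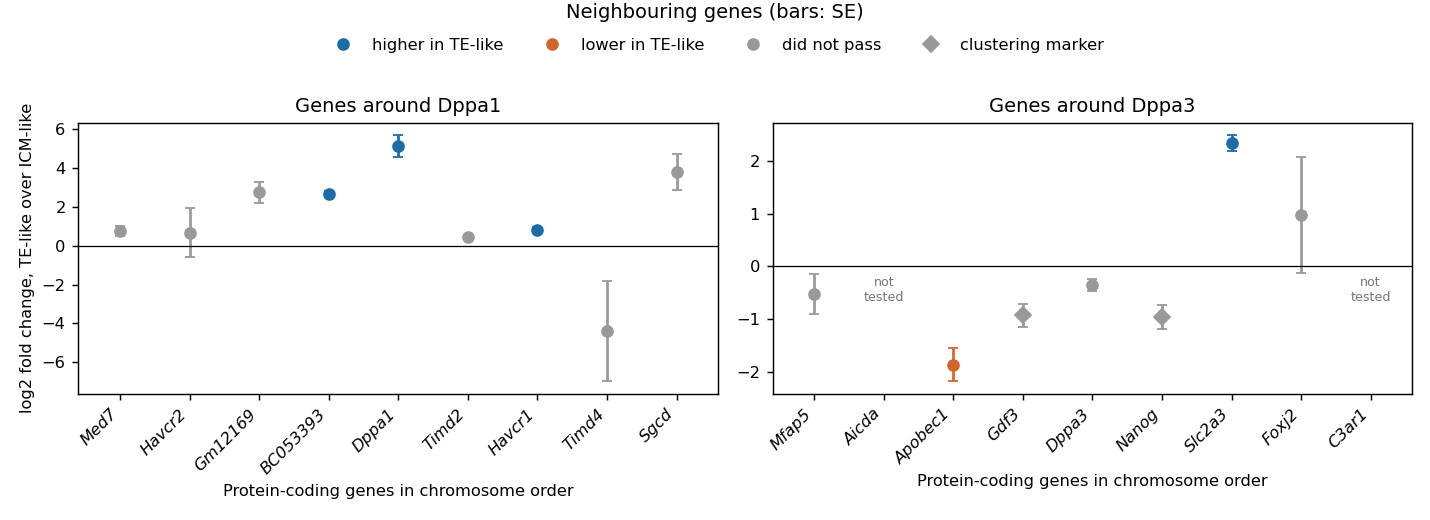
Log2 fold change of TE-like over ICM-like cells (vertical axis, bars are SE) for the 4 protein-coding genes on either side of Dppa1 (left) and Dppa3 (right) in chromosome order. Around Dppa1, BC053393 (2.68) and Havcr1 (0.82) passed with it, while around Dppa3 Slc2a3 (2.35) was higher and Apobec1 (-1.87) lower.

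Most genes tied to the DPPA2 and DPPA4 pair had few counts or none. Of 28 reported targets and two-cell-stage genes 26 had a row, and 9 were tested, of which 0 were higher, 1 was lower and 8 did not pass. Dux, Zscan4a, Zscan4b, Zscan4f, Tdpoz3 and Tdpoz4 were among those without a count in either class. Sp110 was lower in TE-like cells, with 15.1 ± 5.74 CPM in TE-like cells and 56.5 ± 29.5 CPM in ICM-like cells (SD, n = 3 each; log2 fold change -1.75, SE 0.31; edgeR adjusted p = 0.0440). The most abundant, Eif1a, had 405 ± 241 CPM in TE-like cells and 347 ± 242 CPM in ICM-like cells and did not pass. Mael, a germline gene of the piRNA pathway, had 5.33, 1.30 and 0.775 CPM in TE-like cells of replicates 1, 2 and 3, against 10.4, 41.3 and 65.1 CPM in ICM-like cells, and did not pass either (edgeR adjusted p = 0.15). The median log2 fold change of the 9 was -1.62, with 8 below 0, beside 0.02 over all genes tested. The other 17 genes with a row did not reach the filter on low counts, and some of the 9, such as Mael, reached it mainly through ICM-like cells. The median of the 9 is therefore no test.

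Of 18 tested genes of DNA methylation and DPPA3 partners, 1 was higher, 1 lower and 16 did not pass, with a median log2 fold change of -0.22, beside 0.02 over all genes tested. Dnmt3l, the cofactor of the de novo methyltransferases, was higher in TE-like cells at 1.64 (SE 0.24; edgeR adjusted p = 0.0237). Tet1, which oxidises methylated cytosine, was lower at -1.34 (SE 0.19; edgeR adjusted p = 0.0215). Uhrf1, the binding partner of DPPA3, had 87.1 ± 62.0 CPM in TE-like cells and 174 ± 152 CPM in ICM-like cells and did not pass (edgeR adjusted p = 0.107); it was named after its value was seen. Tet2 (0.18) and Ipo5 (0.12) were the most abundant that did not pass.

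None of the 5 tested relatives of DPPA5A with a KH domain passed, with a median of 0.20, and the most abundant were Khdc3 (-0.75) and Ooep (1.06). Among 17 tested genes of the list for naive pluripotency 0 were higher, 2 were lower and 15 did not pass, with a median of -0.20. Those lower in TE-like cells were Klf2, the gene that gives the mouse line its name, at -1.44 (SE 0.12; edgeR adjusted p = 0.00328), and Utf1 at -0.94 (SE 0.14; edgeR adjusted p = 0.0230). The most abundant that did not pass were Fbxo15 (-0.56) and Tfcp2l1 (-0.06). That list also held Tead4, a TEAD factor and not a naive pluripotency gene in the strict sense. Tead4 had the highest log2 fold change of the list, 0.98 (edgeR adjusted p = 0.0748, quasi-likelihood test), and was named after its value was seen. Of 19 tested germline genes none passed, and the most abundant were Tex19.1 (-0.64) and Stk31 (-0.18). Their median was -0.79, with 17 of the 19 below 0. The list also holds Mael, which reached the filter on low counts mainly through ICM-like cells, so this median is no test.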

How the data were processed

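Single-cell 3' RNA libraries with an 8 nt cell barcode and an 8 nt molecular identifier were read; per the labels' protocols they were made by a modified Smart-seq2 method. The authors deposited whole-number counts per gene and barcode, made with CASAVA 1.8, HISAT2 and HTSeq on mm10 per the submitters' processing notes. Whether the molecular identifiers were collapsed is not stated, so counts may be reads, and intervals cover counting error only.

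Barcodes with at least 2000 genes were kept, with no doublet caller, since cells were picked by hand. Levels were logged with a pseudocount of 1, centred within each library and clustered on 51 markers (Leiden, resolution 0.5, 10 components, 15 neighbours, scanpy 1.11.5). The markers, lists and genes were chosen with earlier results of these data known; Dppa1 had been a marker in an earlier analysis and was left out here with the other 4. Counts were summed per library and class, with at least 8 cells a sum, and tested with edgeR 4.0.16 (quasi-likelihood, filterByExpr, TMM, Benjamini-Hochberg over all 12581 genes, threshold 0.05) with the library as a block. The block comes from the design, since both classes come out of the same library. Deviations of the classes of a library from their mean over the 3 libraries correlated at 0.60, 0.55 and 0.40. Those of different libraries correlated at -0.08 at most. Centring each class over the same 3 libraries pushes the values between libraries below 0 when those within a library are positive. The contrast between them is therefore no separate test of the block. The same list of 96 barcodes served every library, and 46 barcode numbers were kept as cells in all 3 libraries.

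Named genes are the 5 Dppa genes, the 4 genes most like each, and of each list up to 4 that passed and the 2 most abundant that did not. The neighbouring genes were added to this rule after the fit. Alternatives used DESeq2 1.42.0 and limma 3.58.1. Positions come from GENCODE on mm10, and promoters from RefSeq on GRCm38.p6.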

Additional observations from a re-analysis of the deposited data

Results flagged for a closer look

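The 63 barcodes left out as cells, with fewer than 2000 genes each, still held counts of every Dppa gene, which came to attention as signal outside the comparisons. Dppa1 had 87 counts in 17 of these barcodes, Dppa2 153 counts in 26, Dppa3 559 counts in 45, Dppa4 54 counts in 17 and Dppa5a 726 counts in 50. Their levels by library were 233 to 314 CPM for Dppa1 in the barcodes left out, against 104 to 564 CPM in the TE-like and ICM-like cells together. For Dppa2 they were 439 to 614 CPM in the barcodes left out, against 525 to 802 CPM in those cells. For Dppa5a they were 855 to 2998 CPM in the barcodes left out, against 519 to 2289 CPM in those cells. No labelled empty wells are among the samples, so there is no control level to set beside these counts, and the source of the counts was not tested.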

How the results depend on the processing

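Over all genes 353 passed (255 higher, 98 lower in TE-like cells). DESeq2 called 1405 (763 higher, 642 lower), limma on mean log2 values per cell 1115, edgeR without cells over 2.5 times their class median 769, and classes by marker score 215. With no replicate block edgeR called 0, with 662 at an unadjusted p under 0.05. Leaving out 1 library gave 46 (without replicate 3) to 556 (without replicate 1). Of 2 alternatives chosen after seeing the data, counting unnamed cells as ICM-like gave 36 and leaving out barcodes 33 to 64 gave 554.

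All 15 alternatives kept Dppa1 higher and Dppa2, Dppa3 and Dppa4 lower in TE-like cells. Dppa1 no longer passed with no replicate block (log2 fold change 5.01), with unnamed cells as ICM-like (4.09) or without replicate 3, within a leave-one-out range of 4.54 to 5.93. Dppa2 no longer passed with no replicate block (-0.81), at clustering resolution 1.0 (-0.84), by marker score (-1.16), with unnamed cells as ICM-like (-0.59) and without barcodes 33 to 64 (-0.67); its leave-one-out range was -1.05 to -0.64. Dppa3 passed without barcodes 33 to 64 (-0.42) and without replicate 1, in a range of -0.53 to -0.25. Dppa5a turned negative in cells with 4000 or more genes (-0.21), in thinned cells (-0.067) and with limma (-0.038), and passed in none. The causes were not tested.

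Thinning each cell to 20000 counts lowered the mean share of cells with a count to 81.1% of TE-like and 18.4% of ICM-like cells for Dppa1, to 93.2% of TE-like and 96.3% of ICM-like cells for Dppa2, and to 87.7% of TE-like and 95.7% of ICM-like cells for Dppa4. EPI-like cells were too few for any test or alternative. With 3 libraries, per-gene permutation cannot pass 0.05, and most ICM-like cells hold few Dppa1 counts, so their levels are imprecise.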
